A study of Rattus norvegicus with 30 samples.

Results

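The genes described here are the neutrophil chemokines Cxcl1, Cxcl2 and Cxcl6, the chemokine receptors Cxcr1 and Cxcr2, the growth factor receptor Csf3r, and the calcium-binding proteins S100a8 and S100a9. They were chosen by name, as genes of neutrophil recruitment and neutrophil content, with earlier results of these data known. They make up 8 of the 26913 genes on the array. Each was measured by 1 probe. All 8 passed the filter on dim probes, which asked for a signal well above background on at least 5 of 30 arrays. Cxcl6 passed it through exposed rats alone, since its 7 arrays well above background were the 5 of the high dose and 2 of the low dose on day 6, so a difference from air was built into its selection. Counts and medians of the 8 genes below include Cxcl6 and are descriptions in its case.

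The rats were males of the outbred Wistar Unilever strain HsdCpb:WU, which arrived at an age of 8 weeks and had 2 weeks to acclimatize. They breathed copper oxide nanoparticles or air through the nose only for 5 days, at an equivalent for 6 hours of 3.3 mg/m3 (low dose) or 13.2 mg/m3 (high dose). Lungs were taken on day 6, which was 1 day after the last exposure, or on day 28, after 22 days without exposure. Air, low dose and high dose were each sampled on both days, with 5 separate rats in each of the 6 groups and 1 array per rat. No group carried a transgene or a further agent. Rats at 0 mg/m3 also carry the nanoparticle in their treatment label, and were taken here as the air controls. The series title speaks of bronchoalveolar epithelium, but the labelled tissue is lung. The markers of alveolar type II cells, such as surfactant protein C, averaged 7.19 to 8.29 (log2 ratio to the reference RNA) in every rat, and all listed macrophage and T cell markers also passed the filter.

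Neutrophils leave the blood along gradients of CXC chemokines, which epithelial cells and macrophages release after injury and which bind the paired receptors Cxcr1 and Cxcr2. In rodents Cxcr2 is the main receptor for Cxcl1, Cxcl2 and Cxcl6. S100a8 and S100a9 form the heterodimer calprotectin, which fills much of the neutrophil cytosol, is also made by monocytes and stressed epithelium, and is released as a danger signal read by Toll-like receptor 4. Csf3r is the receptor for granulocyte colony-stimulating factor, which drives neutrophil production and survival.

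The 3 ligand genes lie close together on rat chromosome 14 and share sequence features near their start sites. NF-kB, a transcription factor that is activated by injury and by cytokines and is known to drive CXC chemokine genes, binds short sequences close to GGG, any 3 bases and TTCC. Whether NF-kB had a part in the changes of these genes was not tested. The promoter windows of the ligands are shown because all 3 hold such matches. They run from 250 bases before the gene's start to 50 bases after it and come from RefSeq (assembly GRCr8), at chr14:17479272-17479571 for Cxcl1, chr14:17467206-17467505 for Cxcl2 and chr14:17596368-17596667 for Cxcl6, all on the minus strand. Capitals mark matches to that pattern on either strand.
Cxcl1: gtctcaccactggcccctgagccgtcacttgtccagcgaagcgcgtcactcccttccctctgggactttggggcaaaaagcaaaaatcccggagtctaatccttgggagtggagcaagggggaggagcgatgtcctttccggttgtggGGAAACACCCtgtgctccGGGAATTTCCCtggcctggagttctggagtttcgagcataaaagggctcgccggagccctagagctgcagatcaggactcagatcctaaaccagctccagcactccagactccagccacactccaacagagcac
Cxcl2: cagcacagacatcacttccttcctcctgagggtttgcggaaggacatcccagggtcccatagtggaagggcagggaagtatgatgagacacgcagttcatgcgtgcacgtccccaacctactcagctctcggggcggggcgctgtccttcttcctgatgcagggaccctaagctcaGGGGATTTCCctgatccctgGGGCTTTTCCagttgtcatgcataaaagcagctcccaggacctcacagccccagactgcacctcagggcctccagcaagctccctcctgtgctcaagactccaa
Cxcl6: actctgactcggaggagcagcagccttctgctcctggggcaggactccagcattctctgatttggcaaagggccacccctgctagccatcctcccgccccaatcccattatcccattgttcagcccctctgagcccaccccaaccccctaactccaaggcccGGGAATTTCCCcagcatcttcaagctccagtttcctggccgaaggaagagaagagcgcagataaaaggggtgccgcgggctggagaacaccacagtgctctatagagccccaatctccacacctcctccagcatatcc

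Cxcl1 held matches that begin at -102, -84 and -83 from the start, the last pair overlapping on opposite strands around GGGAATTTCC. Cxcl2 held GGGGATTTCC at -74 and GGGCTTTTCC at -54. Cxcl6 held the same GGGAATTTCC as Cxcl1, at -88, with an overlapping match on the other strand at -87. Such a match was present in 5.37% of 33469 RefSeq promoter windows of the same length. None was found in the windows of Cxcr1, Cxcr2, S100a9 or Csf3r, and S100a8 was not in the table, so 7 of 8 genes were searched. TTGCNNAA, a core of C/EBP sites that does not overlap the NF-kB matches, was found in Cxcl2 at -217 and in Cxcl6 at -190, and in 10.6% of all windows. TATAAA was found in S100a9 at -42 and in 14.2% of windows, and TGANTCA, a core of AP-1 sites, was found in none of the 7 windows and in 7.33% of all. Both strands were searched, and a match is a description of the letters and not a binding site.

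The values below are log2 ratios of lung RNA (Cy5) to a reference RNA (Cy3) that was the same on every array. They show how 1 gene differs between rats and cannot be compared between genes. In whole lung, more cells of a type and more RNA per cell cannot be told apart. A gene is said to have risen or fallen where limma's moderated test gave an adjusted p under 0.05 (Benjamini-Hochberg over 18421 genes of that comparison). The reference held little of some of these RNAs, since its Cy3 signal was well above background on no array for Cxcl6, Cxcr2 and Csf3r and on 18 of 30 for S100a9. No probe of the 8 genes had most of its Cy5 spots saturated on any array, and saturation of Cy3 was not examined. Median Cy5 intensity ranged from 216 to 432 between arrays. Heart muscle markers averaged 5.40 in air rat 4 and 2.88 in low dose rat 49 of day 6, against a median of -0.51 in air rats of day 6, and 1 rat each of the low and high dose groups of day 28 reached 1.91 and 1.99. The day 6 counts against air are given below with the fits that leave out 1 rat at a time.

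**Figure D1:**
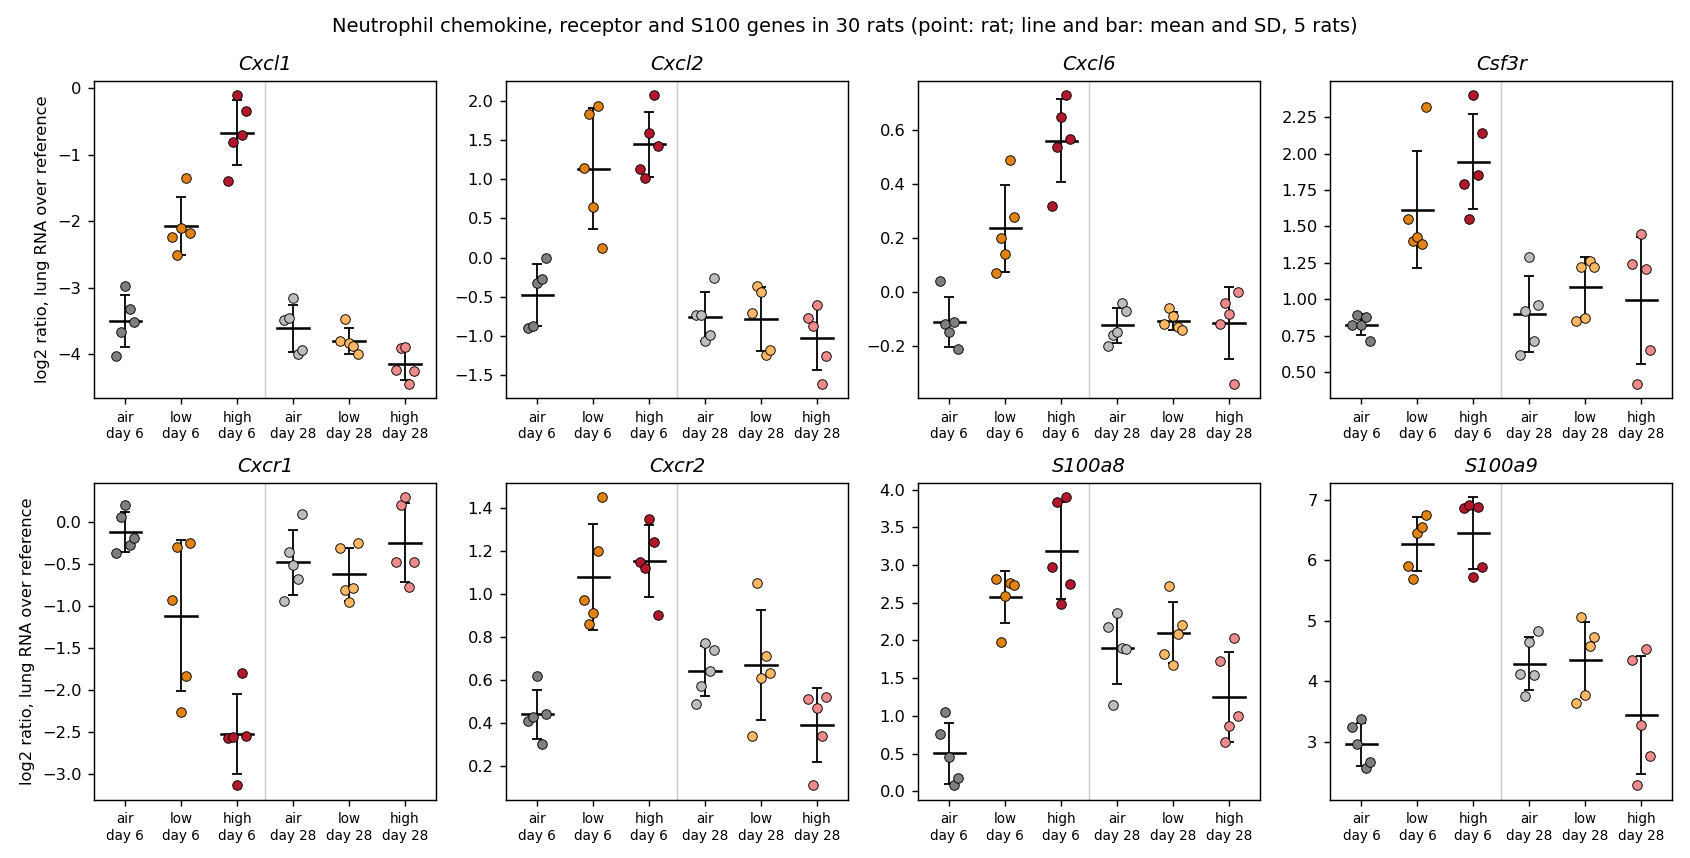
Log2 ratio of lung RNA to reference RNA (vertical axes, scaled per gene) in each of 30 rats, by dose and day, with the group mean and SD of 5 rats as a line and bar. On day 6 Cxcl1 stepped up with dose from -3.50 in air to -2.07 and -0.67, S100a9 stood near 6 at both doses, and Cxcr1 went down to -2.52 at the high dose.

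The day after exposure ended, the RNAs of all 3 ligands, both S100 proteins, Cxcr2 and Csf3r were higher at either dose than in air, and Cxcr1 was lower. At the high dose 7 of the 8 genes rose and 1 fell, by 1.64-fold to 11.3-fold apart from Cxcl6, which was not measured above background in air. Over the whole array 36.5% of genes were called in that comparison, 21.1% higher and 15.4% lower. The median log2 fold change of the 8 was 1.52, against 0.01 over all genes. In each of the 8 genes the 5 high dose rats and the 5 air rats did not overlap, which was so for 27.8% of all genes. For Cxcl6 the rise and the lack of overlap were built in by the filter, so these counts rest on the other genes. Ordered by size of change among 18421 genes, S100a9 was number 21, Cxcl1 number 48, S100a8 number 63 and Cxcr1 number 92. All 8 stayed called in each of the 10 fits that left out 1 rat, air rat 4 included.

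Among the ligands, Cxcl1 showed the clearest steps with dose. In air rats 1 to 5 of day 6 its log2 ratio was -4.03, -3.67, -2.98, -3.32 and -3.52. Low dose rats 47 to 51 had -2.24, -2.51, -2.10, -1.35 and -2.17, and high dose rats 75 to 79 had -1.39, -0.81, -0.11, -0.70 and -0.35. Each exposed rat lay above every air rat, and only the highest low dose rat reached into the range of the high dose. Cxcl1 rose by 2.83 ± 0.22 (SE, n = 5 rats per group) at the high dose, or 7.12-fold (limma, adjusted p = 5.87e-11). The low dose rise was 1.43 ± 0.22, or 2.70-fold (adjusted p = 4.97e-05). Within the 4 slides that carried the arrays, the high dose difference ranged from 1.93 to 3.15 and the low dose difference from 1.19 to 1.63.

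Cxcl2, which shares the receptor Cxcr2 with Cxcl1 and is made in quantity by macrophages, was raised to a similar level at both doses. Its log2 ratio was -0.90, -0.87, -0.33, -0.27 and -0.01 in air rats 1 to 5. It was 1.14, 1.83, 0.65, 1.94 and 0.12 in low dose rats 47 to 51 and 1.13, 1.01, 1.59, 2.07 and 1.42 in high dose rats 75 to 79. The low dose rats were the most uneven, with rat 51 just above the highest air rat and rats 47, 48 and 50 within the range of the high dose. The rise was 1.92 ± 0.28 (SE, n = 5), or 3.79-fold, at the high dose (limma, adjusted p = 4.65e-06). The low dose rise was 1.61 ± 0.28, or 3.06-fold (adjusted p = 0.000319).

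Cxcl6, a neutrophil attractant that epithelial cells release, was dim. Its log2 ratio was 0.04, -0.12, -0.15, -0.11 and -0.21 in air rats 1 to 5. It was 0.07, 0.20, 0.14, 0.49 and 0.28 in low dose rats 47 to 51 and 0.32, 0.54, 0.65, 0.73 and 0.57 in high dose rats 75 to 79. Even the lowest exposed rat exceeded every air rat, but no air array was well above background. The filter kept Cxcl6 through exposed rats alone. Its lack of overlap and its adjusted p-values against air are thus descriptions and do not test a rise. The log2 ratio rose by 0.67 ± 0.08 (SE, n = 5; limma, adjusted p = 1.26e-07) at the high dose and by 0.34 ± 0.08 (adjusted p = 0.00563) at the low dose, where 2 of 5 arrays measured it. As a ratio to a reference that was itself near background this is 1.59-fold at the high dose. On the Cy5 channel alone the mean log2 level was 6.88 at the high dose, 6.48 at the low dose and 6.13 in air. On that scale Cxcl6 was at least 1.67-fold higher at the high dose, a bound close to the ratio of the means themselves. The same figure at the low dose was 1.27-fold, but with 2 of 5 arrays measuring Cxcl6 there it is not a bound. Both figures set the exposed rats' mean against the dimmest signal well above background on each air array, or the probe's own signal where that was higher. They are open to dye bias since no dyes were swapped. With the scanner software's processed signals the log2 values were 3.43 at the high and 2.25 at the low dose. With median centring of the arrays in place of loess the low dose call ended (0.41, adjusted p = 0.0623).

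As processed here, S100a9 showed the largest rise of the 8 genes at either dose. Under 9 other settings its high dose rise ranged from 2.46 to 4, while that of Cxcl1 was never under 2.55. Its first place at the high dose thus depended on the setting. At the low dose its rise ranged from 2.41 to 3.7, with no other gene of the 8 above 2.36. In air rats 1 to 5 its log2 ratio was 3.25, 2.96, 3.37, 2.56 and 2.66. Low dose rats 47 to 51 had 5.90, 5.69, 6.45, 6.55 and 6.75, and high dose rats 75 to 79 had 6.86, 6.91, 5.72, 6.88 and 5.89. The exposed groups covered the same range and stood apart from air by more than the spread within any group. S100a9 rose by 3.49 ± 0.36 (SE, n = 5) at the high dose, or 11.3-fold (limma, adjusted p = 1.17e-08). It rose by 3.31 ± 0.36 at the low dose, or 9.91-fold (adjusted p = 2.78e-07), which made it number 5 by size among all genes of that comparison.

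As processed here, its partner S100a8 rose less. Under the 9 other settings the high dose rise of S100a8 ranged from 2.6 to 2.93, against 2.46 to 4 for S100a9. Which of the S100 genes rose more at the high dose thus depended on the setting. The log2 ratio of S100a8 was 0.76, 1.05, 0.45, 0.08 and 0.18 in air rats 1 to 5. It was 2.81, 1.98, 2.59, 2.76 and 2.73 in low dose rats 47 to 51 and 2.98, 3.83, 2.48, 3.90 and 2.75 in high dose rats 75 to 79. No exposed rat reached down to the air rats, and high dose rats 75, 76 and 78 lay above the low dose group. The rise was 2.69 ± 0.29 (SE, n = 5), or 6.44-fold, at the high dose (limma, adjusted p = 2.67e-08) and 2.07 ± 0.29, or 4.20-fold, at the low dose (adjusted p = 1.42e-05).

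The paired receptors moved in opposite directions. Cxcr2, the main neutrophil receptor for these ligands in rodents, had log2 ratios of 0.41, 0.43, 0.62, 0.30 and 0.44 in air rats 1 to 5. Low dose rats 47 to 51 had 0.97, 0.86, 0.91, 1.20 and 1.45, and high dose rats 75 to 79 had 1.15, 1.12, 1.35, 1.24 and 0.90. The lowest exposed rat, at 0.86, lay above the highest air rat. Cxcr2 rose by 0.71 ± 0.12 (SE, n = 5), or 1.64-fold, at the high dose (limma, adjusted p = 2.10e-05). The low dose rise was 0.63 ± 0.12, or 1.55-fold (adjusted p = 0.000555), a call that ended with the processed signals (0.83, adjusted p = 0.214).

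Cxcr1, whose product binds the same class of ligands, was the one gene of the 8 that was lower. Its log2 ratio was -0.37, 0.06, 0.21, -0.27 and -0.19 in air rats 1 to 5. It was -0.93, -0.30, -2.26, -1.83 and -0.25 in low dose rats 47 to 51 and -2.57, -2.56, -3.14, -1.80 and -2.55 in high dose rats 75 to 79. The high dose rats all lay below the air rats, while the low dose rats were split, with rats 49 and 50 among the high dose values and rats 48 and 51 among the air values. Cxcr1 fell by 2.41 ± 0.30 on the log2 scale (SE, n = 5) at the high dose, which is 5.31-fold lower (limma, adjusted p = 4.04e-07). On 2 of the 5 high dose arrays its signal was not well above background. The processed signals gave a log2 change of -4.08, and within slides the change ranged from -3.35 to -2.23.

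At the low dose Cxcr1 was 2-fold lower (-1.0 ± 0.30, limma, adjusted p = 0.0448), just inside the threshold and with overlapping groups. That call ended under several settings. Without low dose rat 49, which also carried heart muscle signal, the change was -0.71 (adjusted p = 0.137), and without rat 50 it was -0.82 (adjusted p = 0.135). Leaving out any single air rat also ended it, with an adjusted p of 0.0558, 0.0875, 0.107, 0.0520 and 0.0786 without air rats 1 to 5 in turn. It ended with the slide as a block (adjusted p = 0.0615), with no filter on dim probes (0.0631), with only the compared groups fitted (0.113), with median centring (0.116) and with the processed signals (0.0995). Within slides the low dose change ranged from -2.04 to -0.02.

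Csf3r, the receptor for granulocyte colony-stimulating factor, was even among air rats 1 to 5, at 0.82, 0.89, 0.82, 0.88 and 0.71. Low dose rats 47 to 51 had 1.55, 1.4, 1.43, 1.38 and 2.32, and high dose rats 75 to 79 had 1.79, 1.55, 2.40, 1.85 and 2.14. Again no exposed rat overlapped the air rats. It rose by 1.12 ± 0.19 (SE, n = 5), or 2.17-fold, at the high dose (limma, adjusted p = 2.40e-05) and by 0.79 ± 0.19, or 1.73-fold, at the low dose (adjusted p = 0.00687). The gene of its ligand, Csf3, did not pass the test (0.20 ± 0.23, adjusted p = 0.536 at the high dose).

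**Figure D2:**
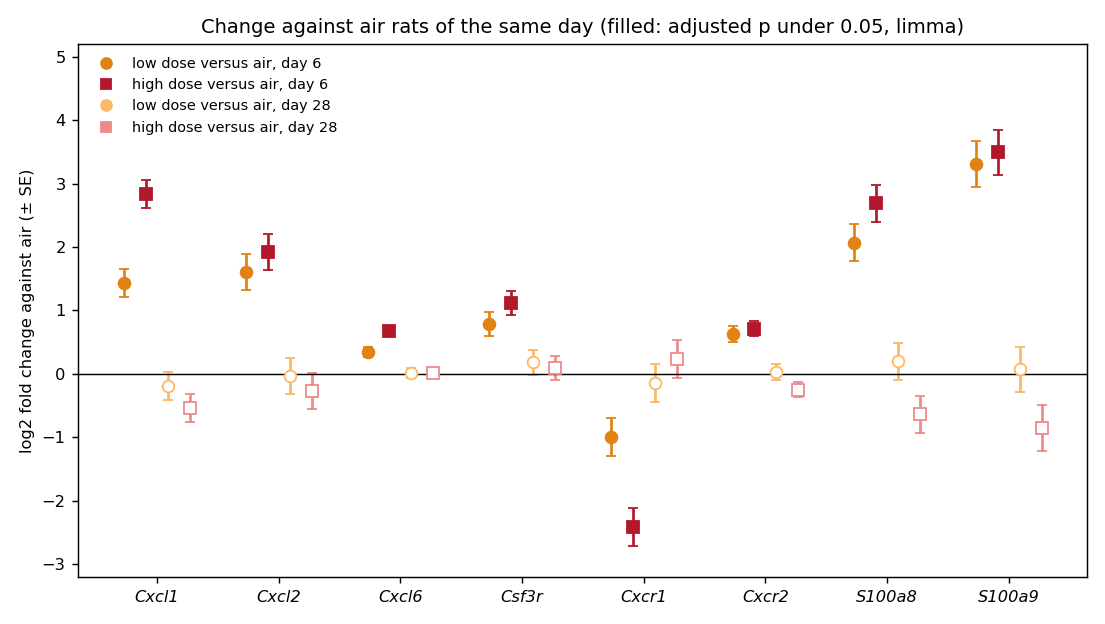
Log2 fold change against air rats of the same day (vertical axis, ± SE, 5 rats per group) for each gene, dose and day, with filled symbols where limma's adjusted p was under 0.05. On day 6 the low and high dose symbols of S100a9 nearly coincide at 3.31 and 3.49 while those of Cxcl1 stand apart at 1.43 and 2.83, and all symbols of day 28 are open.

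All 8 genes were called at the low dose too, 7 higher and Cxcr1 lower, where 6.72% of all genes were called, 4.97% higher and 1.75% lower. The median over the 8 was 1.11 against 0.00 over all genes. Exposed and air rats did not overlap in 7 of the 8, and in 7.58% of all genes. Cxcl6 is in these counts, with its difference from air built in by the filter. Leaving out 1 rat at a time left 7 or 8 genes called, the difference being Cxcr1. The high and low dose comparisons share the same 5 air rats, so their values are given side by side and not as 2 independent results.

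The direct comparison of the doses on day 6 separated 3 of the 8 genes. Cxcl1 was higher at the high dose by 1.4 ± 0.22 (SE; limma, adjusted p = 5.28e-05; 95% interval 0.95 to 1.85). Cxcl6 was higher by 0.33 ± 0.08 (adjusted p = 0.00586), and Cxcr1 was lower, by a log2 value of -1.41 ± 0.30 (adjusted p = 0.00216). In this comparison 11.9% of all genes were called, 8.01% higher and 3.87% lower. The filter favoured the difference of Cxcl6, which was well above background on 5 high dose and 2 low dose arrays. The Cxcl6 call ended with only the compared groups fitted (0.33, adjusted p = 0.0589) and with the processed signals (1.17, adjusted p = 0.0629), and the processed signals moved Cxcr1 to -2.75. The ranges of the 5 high dose and 5 low dose rats overlapped in all 8 genes, while 8.92% of all genes had ranges that did not.

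The other 5 genes did not pass the test between doses, and their intervals say what sizes remain possible. The 95% interval of the high minus low dose log2 difference was -0.55 to 0.92 for S100a9 (0.19, limma, adjusted p = 0.818), -0.16 to 0.31 for Cxcr2 (0.08, adjusted p = 0.762) and -0.27 to 0.89 for Cxcl2 (0.31, adjusted p = 0.569). It was 0.02 to 1.21 for S100a8 (0.62, adjusted p = 0.184) and -0.05 to 0.71 for Csf3r (0.33, adjusted p = 0.293).

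After 22 days without exposure no gene of the 8 was called against air at either dose. At the high dose 0.185% of all genes were called, at the low dose 0.0109%. No share of all genes at an unadjusted p under 0.05 is given, so counts at that threshold have no array-wide rate beside them. By limma at that threshold, 4 of the 8 passed at the high dose and 0 at the low dose. Those 4 were lower than air: S100a9 by a log2 value of -0.85 ± 0.36 (SE, n = 5; adjusted p = 0.282), S100a8 by -0.64 ± 0.29 (adjusted p = 0.303), Cxcl1 by -0.54 ± 0.22 (adjusted p = 0.265) and Cxcr2 by -0.25 ± 0.12 (adjusted p = 0.310). The 8 low dose differences lay between -0.19 and 0.20. Between the doses on day 28 none was called by limma, in a comparison that called 0.141% of all genes. At an unadjusted p under 0.05 3 passed, again with no share of all genes given.

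Values of single rats on day 28 overlapped between dosed and air groups for the genes given here. Cxcl1 was -3.48, -3.46, -3.16, -3.99 and -3.94 in air rats 6 to 10, and -4.23, -3.91, -3.89, -4.44 and -4.25 in high dose rats 80 to 84. S100a9 was 4.12, 3.75, 4.65, 4.11 and 4.83 in the air rats, and 4.35, 2.28, 3.27, 4.53 and 2.77 in the high dose rats. For S100a9 3 of the 5 high dose rats lay below all air rats while the other two lay among them. Cxcr1, which had been the lowest of its groups at the high dose on day 6, was -0.48, 0.21, 0.30, -0.77 and -0.47 in high dose rats 80 to 84, against -0.94, -0.35, -0.51, -0.68 and 0.10 in air rats 6 to 10. Cxcl6 was not well above background on any array of day 28.

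The high dose effect itself differed between the days in all 8 genes, by the test of the difference of effects, which called 16.7% of all genes (11.2% with a lower and 5.49% with a higher effect on day 28). Cxcl6 is counted here too, with its effect on day 6 built in by the filter. The effect on S100a9 was lower on day 28 by a log2 value of -4.35 ± 0.51 (SE; limma, adjusted p = 4.24e-07), that on Cxcl1 by -3.37 ± 0.31 (adjusted p = 6.92e-09) and that on S100a8 by -3.33 ± 0.41 (adjusted p = 8.71e-07). For Cxcr1 it was higher by 2.64 ± 0.43 (adjusted p = 5.47e-05). At the low dose, where 1.95% of all genes were called (1.64% with a lower effect on day 28), it differed in 4 of the 8: S100a9 (-3.24 ± 0.51, adjusted p = 0.00029), S100a8 (-1.87 ± 0.41, adjusted p = 0.00951), Cxcl2 (-1.64 ± 0.40, adjusted p = 0.0223) and Cxcl1 (-1.62 ± 0.31, adjusted p = 0.00233). Leaving out 1 rat ended the Cxcl2 call in 7 of 20 fits. With median centring 1 of these 4 calls was kept, that of S100a9 (-2.99, adjusted p = 0.00502). For S100a8 the air rats were higher on day 28 by 1.39, while the low dose rats differed between the days by -0.47 and were not called.

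Set directly against the rats of day 6, the high dose rats of day 28 had lower values in 7 of the 8 genes and higher values of Cxcr1, in a comparison that called 33.5% of all genes, 20% lower and 13.6% higher. Cxcl1 was 11.1-fold lower (-3.47 ± 0.22, limma, adjusted p = 1.29e-12) and Cxcr1 4.87-fold higher (2.28 ± 0.30, adjusted p = 1.12e-06). In low dose rats 5 of the 8 were lower on day 28 (11.9% of all genes called, 7.94% lower): Cxcl1, Cxcl2, Cxcl6, Cxcr2 and S100a9. Cxcl6 is in the counts at both doses, and the filter favoured its higher values on day 6. The Cxcr2 call ended in 4 of 9 other settings (highest adjusted p = 0.281) and without low dose rats 50, 51, 52 or 54 (highest adjusted p = 0.0955). The S100a9 call ended with processed signals (-0.84, adjusted p = 0.113) and that of Cxcl6 with median centring (-0.4, adjusted p = 0.0623). The S100a8 difference in low dose rats was -0.47 ± 0.29 (adjusted p = 0.306).

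The 2 S100 genes also differed between the air groups, which bears on how far they had come down. S100a8 was 2.18, 1.14, 2.37, 1.90 and 1.89 in air rats 6 to 10 of day 28, all above the air rats of day 6. It was 2.63-fold higher (1.39 ± 0.29 SE, limma, adjusted p = 0.00727). S100a9 was 2.52-fold higher (1.33 ± 0.36, adjusted p = 0.0417), with no overlap between the days. Over all genes 2.95% were called between the air groups, 1.86% higher on day 28, and 6.34% did not overlap. Of the 8 genes these 2 were called. Within 3 slides the difference ranged from 0.99 to 1.90 for S100a8 and from 0.92 to 1.70 for S100a9. The S100a9 call ended in 8 of 10 fits that left out 1 air rat (highest adjusted p = 0.116), and in all but those without air rats 7 and 8. With median centring both calls ended, and with no filter on dim probes that of S100a9 did (adjusted p = 0.0582). Age, day and handling of the 2 air groups cannot be told apart.

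Ordered by group mean, the 6 groups fell into a lower set and a raised set only in some genes. For Cxcl1 and Cxcl2 the step without overlap lay between the air rats of day 6 and the low dose rats of day 6, with all 3 groups of day 28 below. For S100a9 and Csf3r it lay between the low dose rats of day 28 and of day 6, and for Cxcl6 between the high dose rats of day 28 and the low dose rats of day 6. For Cxcr1, Cxcr2 and S100a8 each neighbouring pair of groups overlapped.

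Genes of the same pathways are given by lists of related genes. They are to be read against the 36.5% of all genes called at the high dose on day 6 (21.1% higher, 15.4% lower) and the 6.72% at the low dose (4.97% higher, 1.75% lower). The lists include the 8 genes, which are thus counted again. Cxcl1, Cxcl2 and Cxcl6 are in the ligand list, and Cxcr1 and Cxcr2 in the receptor list. Csf3r is in the list of surface receptors, and S100a8 and S100a9 are in the S100 family. The lists hold 5 genes that no air array of day 6 measured above background, and the 4 of them that rose (Cxcl6, Cxcl11, Csf2rb and Np4) were chosen by the filter through exposed rats, so the counts are descriptions. Of the CXC chemokine ligands, 13 of 15 listed genes were tested. At the high dose on day 6 9 rose and 1 fell (median 0.74), and at the low dose 5 rose and 1 fell (median 0.34). Cxcl1, Cxcl2 and Cxcl6 are among those that rose at both doses. The largest rises besides Cxcl1 were in ligands of Cxcr3, which attract T cells. Cxcl10 lay between -1.83 and -1.29 in air rats and between 2.48 and 3.50 in high dose rats, a rise of 4.73 ± 0.27 (SE, n = 5; limma, adjusted p = 1.72e-13). Cxcl11 was well above background on the 5 high dose arrays and 3 low dose arrays of day 6 and on no other, so a difference was built into its selection as for Cxcl6. Its ratio rose by 2.73 ± 0.11, and on the Cy5 channel alone, where the mean was 9.31 against 6.23 in air, it was at least 8.28-fold higher. Cxcl14 fell (-1.19, adjusted p = 1.13e-06), and the platelet chemokines Pf4 (0.17, adjusted p = 0.528) and Ppbp (0.04, adjusted p = 0.894) did not pass. Cxcl12 is counted as risen (0.74, limma, adjusted p = 0.00534), but its other probe gave 0.08 (adjusted p = 0.771). Cxcl3 was not found under that symbol.

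Of the CXC and atypical receptors, 6 of 10 were tested, and at the high dose 4 rose and 2 fell (median 0.59), while at the low dose 1 rose and 2 fell. The receptor that rose at the low dose was Cxcr2, and Cxcr1 and Ackr3 fell at both doses. Cxcr3, the T cell receptor of Cxcl10, rose by 1.01 ± 0.16 (SE, n = 5; limma, adjusted p = 1.64e-05). Ackr3, a scavenging receptor of endothelium, ranged from 2.05 to 2.26 in air rats and from 1.14 to 1.64 in high dose rats, a change of -0.72 ± 0.14 (adjusted p = 0.000132). Cxcr1 and Ackr3 were thus the receptors that fell, in a list where the other 4 tested receptors rose.

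Of 19 listed inducers and regulators of neutrophil chemokines 11 were tested, and 6 rose and 1 fell at the high dose (median 0.20), against 2 and 0 at the low dose. Il1b, a cytokine that induces Cxcl1 and Cxcl2, lay between 1.37 and 1.78 in air rats, 2.68 and 3.42 at the low dose and 3.45 and 3.80 at the high dose. It rose by 2.04 ± 0.26 (SE, n = 5; limma, adjusted p = 5.27e-07) and by 1.56 ± 0.26 (adjusted p = 0.000182) at the high and low dose. Tnf rose at the high dose by 1.83 ± 0.30 (adjusted p = 1.62e-05) but was not called at the low dose, where rats lay between -0.39 and 1.04, against -0.46 to 0.73 in air. Zc3h12a, an RNase that degrades cytokine mRNAs, rose by 1.45 ± 0.17 (adjusted p = 7.46e-08). The interleukins Il17a, Il17f, Il22 and Il6 were too dim to be tested, Il17a being well above background on 3 of 30 arrays and the other three on 0.

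Of 20 listed granule and antimicrobial proteins 11 were tested, and 7 rose and 1 fell at the high dose (median 0.58), with 4 and 0 at the low dose. Lcn2, an iron-scavenging protein of granules and of epithelium, lay between 0.97 and 2.5 in air rats and between 5.75 and 6.76 at the high dose, a rise of 4.63 ± 0.33 (SE, n = 5; limma, adjusted p = 1.45e-11). Chi3l1, a chitinase-like protein, rose by 2.83 ± 0.29 (adjusted p = 1.39e-08), though between 0.92 and 4 under other scalings. Hp, haptoglobin, rose by 2.25 ± 0.18 (adjusted p = 1.76e-10). The neutrophil defensin Np4 rose (1.37, adjusted p = 0.000184), with no air array well above background. A difference was thus built into its selection as for Cxcl6, and its values are a description. The protease Prtn3 (0.06, adjusted p = 0.842) and the antimicrobial peptide precursor Camp (0.09, adjusted p = 0.780) did not pass, and Elane, Ctsg, Ltf, Ngp and Mmp8 were well above background on at most 1 array.

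Of 27 listed surface receptors and oxidase subunits of neutrophils and other phagocytes 22 were tested, and 15 rose and 1 fell at the high dose (median 0.81), with 8 and 0 at the low dose. Il1r2, a decoy receptor for interleukin-1, rose by 2.38 ± 0.15 (SE, n = 5; limma, adjusted p = 1.96e-12). The integrin Itgam rose by 2.14 ± 0.19 (adjusted p = 4.55e-10) and the platelet-activating factor receptor Ptafr by 1.81 ± 0.18 (adjusted p = 3.71e-09). Fpr1, a receptor for bacterial formyl peptides, fell (-0.43, adjusted p = 0.000816).

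Of 18 genes listed under the S100 family 15 were tested, 1 of them S100pbp, a binding protein outside the family that did not pass (-0.13, adjusted p = 0.368). At the high dose 4 rose, S100a8 and S100a9 included, and 4 fell (median 0.08 over the list). S100b, a protein of glia and of some dendritic cells, fell (-1.03 ± 0.23 SE, n = 5; limma, adjusted p = 0.000862), as did S100a1 (-0.96, adjusted p = 1.37e-05), S100a6 (-0.98, adjusted p = 3.32e-06) and S100a16 (-0.40, adjusted p = 0.0130). S100g and S100a4 were the other two that rose, by 0.91 (adjusted p = 0.000191) and 0.36 (adjusted p = 0.0389). Under 5 other scalings 3 or 4 rose and 3 to 5 fell. Of the receptors and signalling proteins for S100a8 and S100a9, 11 of 12 were tested and 5 rose (4 higher and 2 lower with Cy5 alone), among them the Toll-like receptor 4 complex: Tlr4 (0.69 ± 0.12, adjusted p = 3.70e-05) and its partners Cd14 (1.89 ± 0.18, adjusted p = 4.22e-09) and Ly96 (0.87 ± 0.13, adjusted p = 8.43e-06). Ager, the receptor for advanced glycation end products, which alveolar type I cells express strongly, did not pass (-0.17, adjusted p = 0.196), while other type I markers fell as given below. No gene of these 7 lists was called at either dose on day 28. Each of the 21 genes that the rule named from the lists kept its direction and call at the high dose on day 6 under all 5 scalings.

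**Figure D3:**
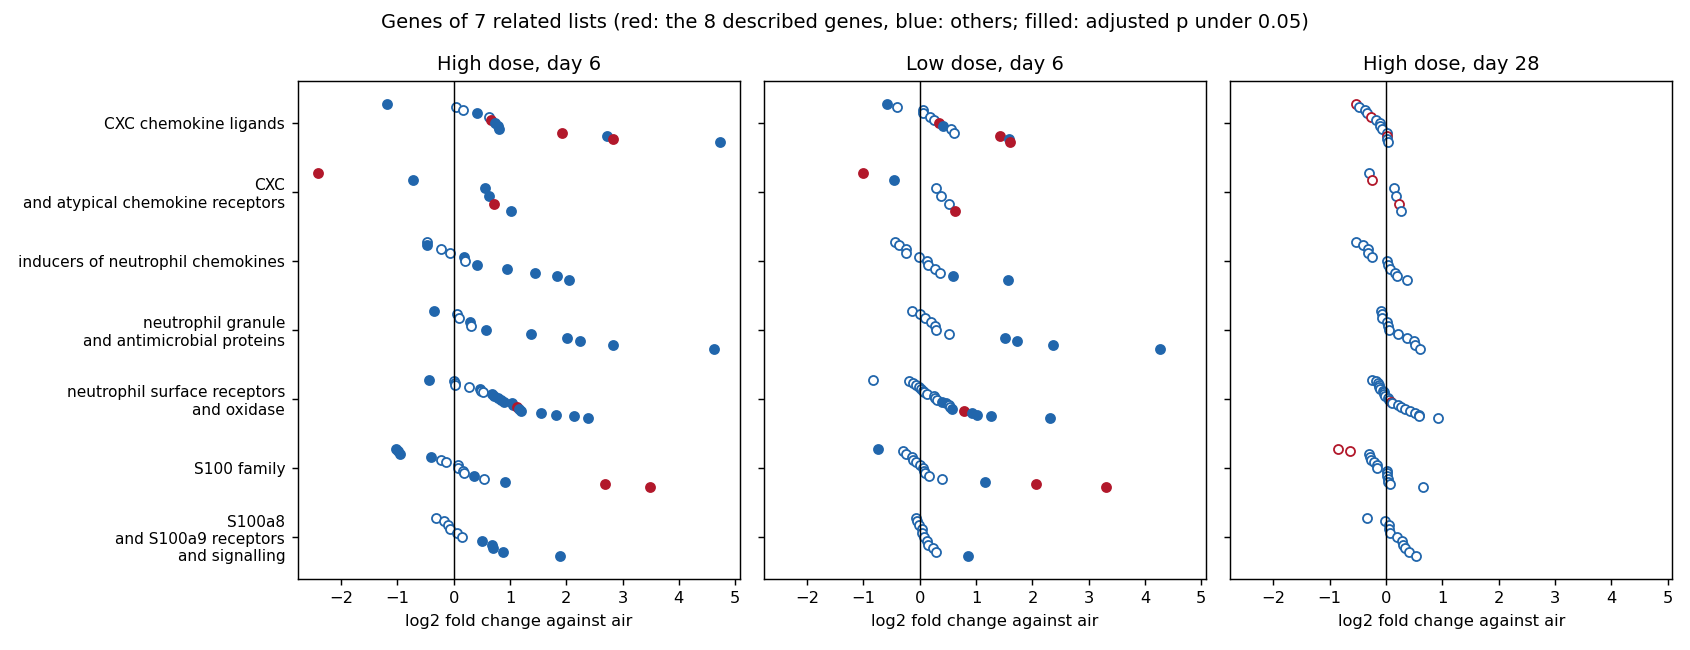
Log2 fold change against air rats (horizontal axis) of each tested gene in 7 lists of related genes, at the high dose on day 6, the low dose on day 6 and the high dose on day 28; red points are the 8 genes described, filled points have an adjusted p under 0.05 in limma. On day 6 most lists spread to the right of 0, with Cxcl10 at 4.73 and Lcn2 at 4.63 farthest out, and every point of day 28 is open.

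Markers of several cell types also moved on day 6. Of 10 neutrophil granule markers 4 were tested, and 2 rose at the high dose, Lyz2 (0.58) and Mmp9 (0.29); their mean log2 ratio was 1.08 to 1.23 in air rats, 1.27 to 1.47 at the low dose and 1.31 to 1.56 at the high dose. On day 28 that mean was 1.11 to 1.35 in air rats, 1.31 to 1.55 at the low dose and 1.23 to 1.51 at the high dose, in ranges that overlapped those of the exposed rats of day 6. Of 10 macrophage and monocyte markers 8 rose, by up to 4.04 for the elastase Mmp12, while Marco (-0.29) and Mrc1 (-0.46) did not pass (limma, adjusted p = 0.115 and 0.101). Their mean was 0.33 to 0.47 in air rats, 0.67 to 1.4 at the low dose and 1.11 to 2.23 at the high dose, without overlap between any pair of groups except the 2 doses. All 5 T cell markers rose, with a mean of -1.33 to -0.87 in air rats and -0.80 to -0.25 at the high dose. Of 5 tested alveolar type I markers 3 fell at the high dose, Cav1 (-1.60, limma, adjusted p = 8.34e-10), Pdpn (-0.63, adjusted p = 0.000264) and Hopx (-0.34, adjusted p = 0.00189). The other probe of Pdpn did not pass (-0.36, adjusted p = 0.16). The mean of the 5 type I markers was 3.69 to 4.03 in air rats and 3.41 to 3.81 at the low dose, and 3.03 to 3.44 at the high dose, without overlap with air. Erythroid markers, whose mean was 4.22 to 4.89 in air rats and 3.48 to 4.28 at the high dose, fell in 4 of 5 tested. The other probes of Hbb (-0.66, limma, adjusted p = 0.0594) and Hba-a1 (-0.53, adjusted p = 0.0682) did not pass. The part of all these cell types in the changes of the 8 genes was not tested. On day 28 none of these markers was called at either dose.

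Over the 30 rats, the genes whose log2 ratios followed those of the 8 most closely differed from gene to gene. The points share the dose and day groups, the slides and the reference RNA, so Pearson's r is given as a description beside the r of deviations from the group means. Cxcl1 was followed by Ckmt1 (0.95), Bcl3 (0.948) and Sting1 (0.948), with deviations at 0.449, 0.598 and 0.242. Cxcl2 was followed by the chemokines Ccl1 (0.911), Ccl2 (0.911) and Ccl17 (0.909), with deviations at 0.566, 0.592 and 0.214. Cxcl6 was followed by Zbtb48 (0.937), Serpina11 (0.935) and Fgd6 (0.934), with deviations at 0.424, 0.357 and 0.501.

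S100a8 and S100a9 were nearest to each other, at 0.919 over rats and 0.793 for deviations within groups. S100a9 was also followed by Cxcr2 (0.892) and Il1b (0.891), with deviations at 0.534 and 0.545. Csf3r was followed by Txnrd3 (0.902), Cldn10 (0.898) and the oxidase subunit Ncf4 (0.897), with deviations at 0.717, 0.697 and 0.639. The ligands and the S100 genes, in contrast, did not go together within groups: the r of deviations was -0.197 between Cxcl1 and S100a9 and -0.264 between Cxcl2 and S100a8.

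Among the 24 pairs of a gene and its 3 followers, the r of deviations was highest for Cxcr1 and Cela1. Cela1, an elastase of the chymotrypsin family, followed it at 0.931 over rats and 0.896 for deviations, Pla2g15, a lysosomal phospholipase, at 0.910 and 0.809, and Serpinb10, a protease inhibitor, at 0.903 and 0.725. In the uneven low dose group of day 6, rats 49 and 50 had Cela1 at -2.70 and -2.49 while rats 48 and 51 had -0.77 and -0.87, the same split as in Cxcr1. Cela1 fell at the high dose (-2.23 ± 0.30 SE, n = 5; limma, adjusted p = 9.3e-07) and at the low dose (-1.13 ± 0.30, adjusted p = 0.0162). Serpinb10 fell by a log2 value of -3.43 ± 0.35 (adjusted p = 1.2e-08) and -2.20 ± 0.35 (adjusted p = 9.8e-05). Cxcr1 and its pair Cxcr2 had an r of deviations of 0.040.

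**Figure D4:**
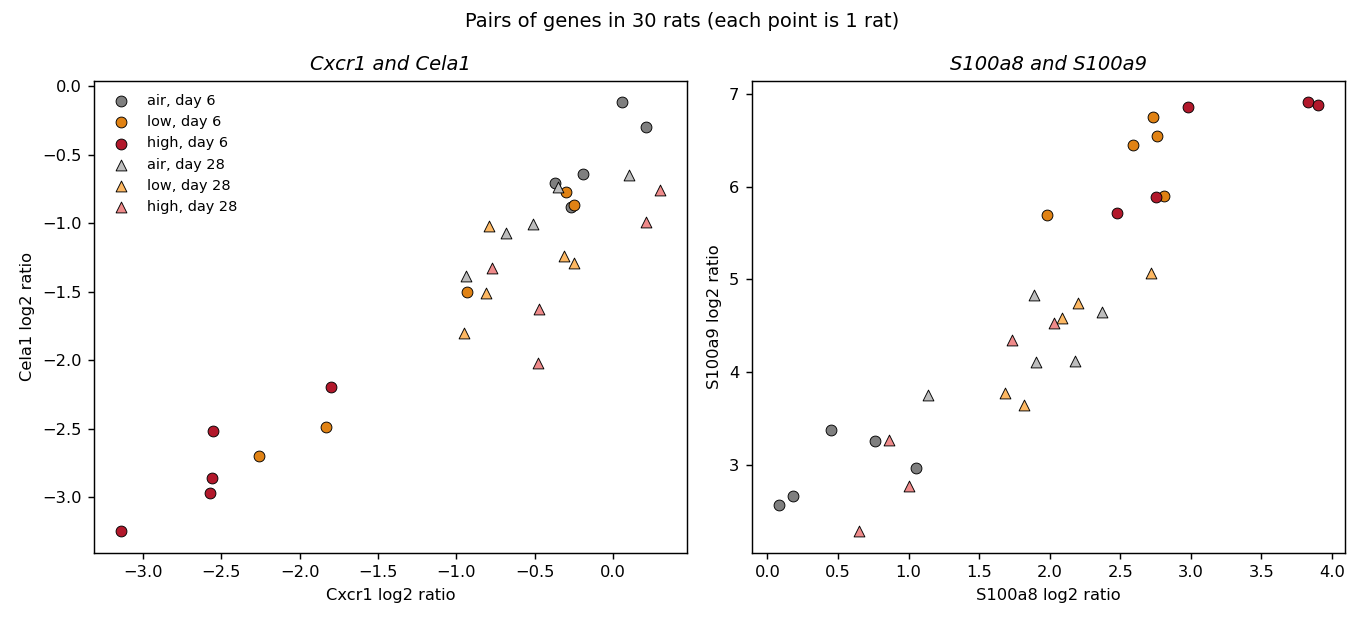
Log2 ratios of Cxcr1 against Cela1 and of S100a8 against S100a9 in 30 rats, each point 1 rat, circles for day 6 and triangles for day 28, coloured by dose. In the first panel low dose rats 49 and 50 of day 6, with Cxcr1 at -2.26 and -1.83, lie with the high dose rats while the others lie with the air rats or between; in the second panel all day 6 exposed rats have S100a9 at 5.69 or above.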

How the data were processed

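RNA from whole lung of 30 rats was labelled with Cy5 and hybridised with a Cy3 reference on 2-colour Agilent arrays, 1 array per rat. The labels disagree on the reference: a mouse universal reference in the labelling protocol, but a rat RNA from 14 cell lines in the second channel; as it was the same on every array, it drops out of differences between rats. The deposited files of the authors hold spot intensity values from Agilent Feature Extraction 11.0.1.1, per the file headers. The authors' deposited table of log2 ratios, made by steps that no source used here states, correlated at 0.997 to 1 over probes with loess ratios without background correction, and served as an alternative.

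Here median spot and local background intensities were corrected with normexp (offset 50); mean spot signals were not used here. The log2 Cy5/Cy3 ratios were then loess-normalized array by array, giving no weight to outlier spots or to the 4259 control spots among 62976 (6.76%). Flagged spots were dropped and spots of 1 probe averaged. Probes with Cy5 well above background on at least 5 of 30 arrays were kept (20853 of 30367). Between 59.5% and 68.4% of probes per array were well above background. RefSeq accessions (GRCr8 table) named 18005 probes by 15168 symbols, and of several probes the one brightest on average was taken per gene, giving 18421 genes, 11331 with a symbol. Array coordinates refer to rn4 and were not used.

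Group means were fitted over all 30 arrays with limma 3.58.1 (R 4.3.3), with 11 contrasts and Benjamini-Hochberg adjustment within each at 0.05. Calls, SE and 95% intervals come from this fit, which was tested on simulated data. Each group holds 5 separate rats as replicates, which limits the precision. The 8 genes, the lists and the tests were chosen with earlier results of these data known. The naming rule took all 8 genes, the 3 genes of each list with the largest called change without overlap at the high dose on day 6 (up to 2 more called on day 28, of which there were 0), and the 3 genes most like each of the 8 by Pearson's r. Other genes of the lists were named after their values were seen. Alternatives were no background correction, median centring, Cy5 alone, processed signals, no filter, the slide as a block, only the compared groups, the mean of a gene's probes, the authors' table, and leaving out each rat in turn.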

Additional observations from a re-analysis of the deposited data

Results flagged for a closer look

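In 2 of 48 groups of 5 rats examined, 1 rat stood apart from the other four, with a gap over range above 0.71; chance flags about 1 group in 20. Low dose rat 48 of day 6 had S100a8 at 1.98 against a group median of 2.73 (gap over range 0.733), and still exceeded every air rat. Low dose rat 51 of day 6 had Csf3r at 2.32 against a median of 1.43 (0.821), inside the range of the high dose rats.

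The effect of the high dose on day 28 differed from that on day 6 in each of the 8 genes by limma's test of the difference. The log2 differences of effects were -3.37 for Cxcl1, -2.19 for Cxcl2, -0.66 for Cxcl6, 2.64 for Cxcr1, -0.96 for Cxcr2, -3.33 for S100a8, -4.35 for S100a9 and -1.03 for Csf3r. These kept their direction and call in each of the 20 fits that left out 1 rat. The call of Csf3r ended under 1 of 9 other settings (highest adjusted p = 0.184). For the low dose the differences that passed were -1.62 for Cxcl1, -1.64 for Cxcl2, -1.87 for S100a8 and -3.24 for S100a9.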

How the results depend on the processing

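At the high dose on day 6 all 72 values of the 8 genes under 9 other settings kept direction and call. Cxcr2 kept its call narrowly in 1 setting (limma, highest adjusted p = 0.0493), and Cxcl6 is counted with its rise built in by the filter. For the low dose 65 of 72 values kept direction and call and 7 lost the call, all of Cxcr1, Cxcl6 or Cxcr2 as given above. Between doses Cxcr2, not called, turned to -0.01 with the authors' table. On day 28, where nothing was called, small values changed sign. At the high dose Cxcl6 became 0 without background correction and -0.12 with processed signals. At the low dose median centring, which moved the median of all genes by 0.15, gave 0.06 for Cxcl1, 0.19 for Cxcl2, -0.06 for Cxcl6 and 0.08 for Cxcr1. There Cxcl2 was 0.01 with Cy5 alone and 0.06 with the slide as a block, and processed signals gave -0.03 for Cxcl6 and -0.10 for Cxcr2. Leaving out 1 rat, the high dose values on day 28 ranged from -0.02 to 0.07 for Cxcl6 and from -0.02 to 0.24 for Csf3r. The low dose values ranged from -0.14 to 0.09 for Cxcl2, 0.00 to 0.04 for Cxcl6, -0.07 to 0.11 for Cxcr2 and -0.11 to 0.25 for S100a9. Between air groups 2 genes were called, 0 with median centring, 1 with no filter, and 1 to 2 leaving out 1 rat. In low dose rats between days 5 were called, 3 with median centring or processed signals. For the change of the low dose effect 4 were called, 1 with median centring and 3 to 5 leaving out 1 rat. Of all genes called at the high dose on day 6 57.7% were higher, against 43.8% with median centring, 45.7% with Cy5 alone and 46.1% with the authors' table; at the low dose 74.0%, against 57.9% with Cy5 alone. The cause was not tested. Signal over background limits Cxcl6 and Cxcr1. No paired analysis was possible because each rat has its own number and no number is shared between groups.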
